A study of Mus musculus with 9 samples.

Results

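Sterol and fatty acid synthesis was followed through 34 genes, taken by name from the 38293 genes of a raw count table. They comprised 8 genes of the mevalonate steps, 11 genes of the sterol steps, the sterol carrier Stard4, 5 regulators and 9 genes of the fatty acid steps. All 34 were found in the table and all passed the filter on low counts in each comparison. The lowest count of any of them in a library was 48, for Acss2, and 30 of the 34 had over 100 counts in every library.

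The cells were E14, an established mouse embryonic stem cell line of the 129/Ola strain, in 3 culture states with 3 libraries each. mESC-2i, labelled naive, were grown without serum in N2B27 with 10 ng/mL LIF, the MEK inhibitor PD0325901 at 1 µM and the GSK3 inhibitor CHIR99021 at 3 µM. mESC-ser, labelled primed, were grown on gelatin in DMEM with 15% foetal bovine serum and 10 ng/mL LIF. EpiLC, or epiblast-like cells, were made from naive mESC on fibronectin in N2B27 with 20 ng/mL activin A, 12 ng/mL bFGF and 1% KSR, a serum replacement. The time in EpiLC medium was not given in the sources used here. All libraries came from a single cell line, and nothing in the labels says how the cultures behind the replicates were separated, so the p-values measure the spread between these libraries. Medium and cell state changed together between the groups, so their parts in a difference cannot be told apart.

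Cholesterol is built from acetyl-CoA. The mevalonate steps turn it into isoprenoid units and farnesyl diphosphate, and the sterol steps join these to squalene, close the rings to lanosterol and trim lanosterol to cholesterol. The fatty acid steps start from the same acetyl-CoA, which the carboxylase ACC1 (Acaca) and fatty acid synthase (Fasn) turn into saturated chains, and elongases and desaturases then lengthen and unsaturate them. Transcription of both routes is driven by the SREBP factors, encoded by Srebf1 and Srebf2. When sterols are scarce, SCAP carries the SREBP precursors from the endoplasmic reticulum to the Golgi, where they are cut and activated. INSIG proteins hold SCAP back when sterols are plentiful, and Insig1 is itself an SREBP target. SREBP2 is known mainly for sterol genes and SREBP1 mainly for fatty acid genes. Both routes supply membrane to dividing pluripotent cells, and serum brings lipoprotein cholesterol and fatty acids from outside.

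The stretches of promoter below show the letters that SREBP and its usual partner NF-Y are known to bind, in genes that stand for the different patterns found. Hmgcs1, Mvd, Cyp51 and Msmo1 were lowest in serum. Ebp, also lowest in serum, and Hsd17b7 were sterol genes that fell in EpiLC against mESC-2i. Fasn was a fatty acid gene with its highest mean in serum, though not with the length and GC offsets given below. Each window holds the 150 bases before the RefSeq start site of the gene (build GRCm38.p6), read 5′ to 3′ on the strand of the gene, with matches to TCACNCCAC or to CCAAT on either strand in capitals. A CCAAT on the other strand reads ATTGG, and the run of capitals just past the middle of the Fasn window is a pair of CCAAT matches on opposite strands that share letters.
Hmgcs1 (chr13:119690201-119690350, plus strand): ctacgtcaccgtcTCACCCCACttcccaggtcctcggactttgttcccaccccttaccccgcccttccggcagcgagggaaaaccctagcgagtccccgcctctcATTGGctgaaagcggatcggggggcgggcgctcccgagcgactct
Mvd (chr8:122443423-122443572, minus strand): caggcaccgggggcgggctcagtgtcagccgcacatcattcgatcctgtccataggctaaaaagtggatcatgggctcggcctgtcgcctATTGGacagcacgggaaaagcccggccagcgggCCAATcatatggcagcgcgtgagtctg
Cyp51 (chr5:4104698-4104847, minus strand): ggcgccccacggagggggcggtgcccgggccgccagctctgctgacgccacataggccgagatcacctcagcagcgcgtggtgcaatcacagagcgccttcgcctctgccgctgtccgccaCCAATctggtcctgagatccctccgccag
Msmo1 (chr8:64733579-64733728, minus strand): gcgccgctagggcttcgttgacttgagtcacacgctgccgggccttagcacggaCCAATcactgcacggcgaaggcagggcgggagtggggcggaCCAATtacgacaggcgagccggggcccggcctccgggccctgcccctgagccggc
Ebp (chrX:8193513-8193662, minus strand): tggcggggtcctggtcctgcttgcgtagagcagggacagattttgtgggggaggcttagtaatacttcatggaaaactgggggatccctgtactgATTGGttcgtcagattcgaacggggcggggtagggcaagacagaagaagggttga
Hsd17b7 (chr1:169969206-169969355, minus strand): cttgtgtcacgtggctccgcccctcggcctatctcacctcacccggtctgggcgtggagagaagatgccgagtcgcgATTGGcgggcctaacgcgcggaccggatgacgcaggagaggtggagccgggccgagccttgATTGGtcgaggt
Fasn (chr11:120824548-120824697, minus strand): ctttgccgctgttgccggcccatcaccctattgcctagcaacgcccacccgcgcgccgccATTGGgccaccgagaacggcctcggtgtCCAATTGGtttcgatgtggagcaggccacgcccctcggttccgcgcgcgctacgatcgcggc

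RefSeq promoters, from 250 bases before to 50 bases after the start, were given for 27 of the 34 genes. Over this window, both strands counted, CCAAT was found in 15 of the 16 mevalonate and sterol genes with a promoter (93.8%), in 3 of the 6 fatty acid genes (50%) and in 4 of the 5 regulators (80%). It was in 43.6% of the promoters of 9894 genes tested in all comparisons. TCACNCCAC, a strict form of the sterol regulatory element, was found once, in Hmgcs1, against 1.49% of the tested genes. The GC box GGGCGG was in 87.5% of the mevalonate and sterol promoters and in 50% of the fatty acid promoters, against 70.3% of tested genes. The E-box CACGTG was in 18.8% and 0% of them, against 12.1%. These are counts of letters, not of bound sites, and other forms of each element were not searched for.

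Library totals ran from 7187576 to 16829549 counts. The 4 pluripotency markers were above 1 CPM, a count scaled to library size, in every library, but their levels differed between states. In EpiLC, Sox2 was at 57.6 to 69.1 CPM against 457 to 473 in mESC-2i, and Nanog at 58.4 to 65.7 against 585 to 699. Utf1 was at 844 to 951 against 24.1 to 30.5, and Pou5f1 at 984 to 1027 against 677 to 1087. Summed levels of 4 naive markers ran from 1537 to 1570 CPM in the 2i state, from 1044 to 1102 in serum and from 27.1 to 31.7 in EpiLC, and those of 4 formative markers were 71.8 to 80.3, 609 to 711 and 1620 to 1709. The mESC-ser libraries, labelled primed, thus lay between the other states on both sums. Zfp42 was at 296 to 382 CPM against 287 to 303 in mESC-2i. The other naive markers were lower, with Klf4 at 139.7 to 172 against 353 to 391, Esrrb at 417 to 510.3 against 673 to 679 and Tbx3 at 107 to 123 against 203 to 240.0. Fgf5 was at 3.16 to 4.55 against 115 to 126 in EpiLC. Dnmt3b was at 508 to 601, against 56.9 to 64.8 in mESC-2i and 1113 to 1168 in EpiLC, and Pou3f1 at 66.9 to 80.4, against 1.72 to 2.33 and 286 to 298. Markers of other cells were also counted. Summed CPM in mESC-2i, mESC-ser and EpiLC was 12.8 to 16.3, 42.4 to 44.8 and 10.1 to 11.3 for 8 endoderm markers, with Afp at 0 in mESC-ser. It was 33.5 to 38.9, 56.8 to 75.6 and 41 to 44.7 for 5 fibroblast markers, 91.1 to 102, 46.6 to 56.4 and 11 to 11.7 for 5 trophectoderm markers, with Elf5 at 0 in EpiLC, and 182 to 206, 188 to 200.4 and 63.8 to 65.6 for 4 neural markers. The part of such cells in the results was not tested, and in bulk RNA fewer cells of a type and less RNA per cell cannot be told apart. A fit with offsets for gene length and GC content was also made, and its values are given beside the results they alter.

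Summed over each route, the balance between sterol and fatty acid transcripts differed between the states. The 19 mevalonate and sterol genes took 0.201% ± 0.0148 of all counts in mESC-2i (SD, n = 3, here and for all group means). Their share was 0.0905% ± 0.00172 in mESC-ser and 0.241% ± 0.00503 in EpiLC. The 9 fatty acid genes took 0.345% ± 0.0137, 0.233% ± 0.0236 and 0.186% ± 0.0039. These shares are of raw counts. Summed as TMM-scaled CPM, the scale of all levels below, the mevalonate and sterol genes were at 1653 to 1895 with 2i, 859 to 895 with serum and 2752 to 2839 in EpiLC. The fatty acid genes were at 3016 to 3152, 2104 to 2514 and 2102 to 2185, so mESC-ser and EpiLC overlapped. Single genes weighed heavily in these sums. In mESC-2i, mESC-ser and EpiLC, Scd2 had 1147 ± 34.9, 391 ± 51.9 and 516 ± 9.05 CPM. Fasn went the other way, with 528 ± 71.6, 837 ± 125 and 647 ± 27.8. In the mevalonate and sterol set, Fdps had 135 ± 31.9, 57.2 ± 4.89 and 508 ± 43.2. The mevalonate and sterol sum was lowest in mESC-ser on both scales, and the fatty acid sum was highest in mESC-2i on both. Counts of the first set over counts of the second ran from 0.525 to 0.628 with 2i, from 0.342 to 0.42 with serum and from 1.28 to 1.31 in EpiLC, and no group overlapped another. These sums and ratios are given as a description, with no test and no length or GC offsets. With such offsets the median log2 fold change of the fatty acid genes in EpiLC against mESC-ser went from -0.09 to 0.84.

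**Figure D1:**
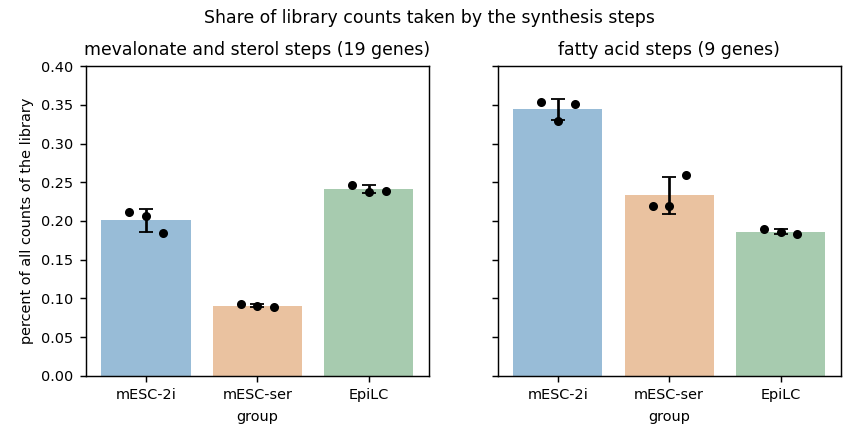
Percent of all counts of a library in the 19 mevalonate and sterol genes and in the 9 fatty acid genes (y axis), for mESC-2i, mESC-ser and EpiLC. Bars are means of 3 libraries, error bars are SD and points are libraries. The sterol bar is lowest in mESC-ser (0.0905%) and the fatty acid bar is highest in mESC-2i (0.345%). These are shares of raw counts, without length or GC offsets, and on TMM-scaled CPM the fatty acid sums of mESC-ser and EpiLC overlap. Single genes weigh heavily in the sums, such as Scd2 and Fasn among the fatty acid genes.

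To ask how synthesis genes differed between mESC-ser and mESC-2i, each gene was tested with the edgeR quasi-likelihood test on those 6 libraries. A call needed a log2 fold change beyond 0.5 in size and a p under 0.05 after Benjamini-Hochberg adjustment over all genes tested, and every adjusted p below is from this edgeR test. Of the 19 mevalonate and sterol genes 15 fell in mESC-ser and none rose, with a median log2 fold change of -1.16 against -0.04 over all tested genes. Of the 9 fatty acid genes 5 fell and 2 rose. Over all 15728 genes tested, 30.3% were called lower and 25.9% higher. The groups did not overlap in CPM for 31 of the 34 genes, against 70.7% of tested genes, and the 3 that overlapped were Idi1, Insig2 and Acly.

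Among the mevalonate steps 6 of 8 fell. Hmgcs1, the HMG-CoA synthase that commits acetyl units to the route, had 368, 310.4 and 341 CPM in mESC-2i and 203, 190.2 and 193 in mESC-ser. All serum libraries lay below all 2i libraries, and the log2 fold change was -0.86 ± 0.11 (SE, here and for all fold changes, adjusted p = 5.06e-05). Fdps, which makes farnesyl diphosphate, had 133, 168 and 105 CPM in mESC-2i against 54.5, 54.2 and 62.8 in mESC-ser (-1.30 ± 0.16, adjusted p = 4.46e-05). Its exons overlap those of Gm43738 on the same strand over 26.7% of their length, so some of its reads could belong to either gene. The thiolase Acat2 fell by 1.16, the kinases Mvk and Pmvk by 0.84 and 1.02, and the decarboxylase Mvd by 1.05 on the log2 scale. The isomerase Idi1 (-0.34 ± 0.14) and Ggps1 (0.41 ± 0.12), which branches off to the geranylgeranyl groups used to anchor proteins in membranes, were not called. Genes on the opposite strand overlap 18.3% of the exons of Fdft1, 13.2% of those of Scap, 12.1% of those of Hmgcs1, 9.22% of those of Idi1, 9.12% of those of Acss2 and 5.44% or less of those of the other genes, and without a stated strand setting their reads cannot be told apart.

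The sterol steps gave larger falls, with 9 of 11 called and a median of -1.42. Tm7sf2, a sterol reductase, had 27.6, 27.8 and 33.3 CPM in mESC-2i and 6.86, 6.36 and 7.41 in mESC-ser (-2.16 ± 0.14, adjusted p = 5.23e-07). Its exons overlap Vps51 on the same strand over 12.1% of their length. Fdft1, the squalene synthase at the entry to the sterol branch, had 151, 164 and 129 CPM against 41.6, 38 and 36.9 (-1.99 ± 0.12, adjusted p = 3.05e-07). The fitted level was 3.96 times as high in mESC-2i. The methylsterol oxidase Msmo1 (-1.91 ± 0.11), the isomerase Ebp (-1.72 ± 0.12) and the lanosterol demethylase Cyp51 (-1.60 ± 0.13) fell by similar amounts. Dhcr7, the reductase of the last step, and the keto reductase Hsd17b7 each had -1.42, Nsdhl had -1.35 ± 0.13 and squalene epoxidase, Sqle, had -0.73 ± 0.11. Lanosterol synthase, Lss (-0.41 ± 0.11), and the desaturase Sc5d (-0.46 ± 0.11) passed the adjusted p but not the fold. Stard4, which moves sterols between membranes, fell from 74.7 ± 3.84 to 36.1 ± 1.15 CPM (-1.11 ± 0.10, adjusted p = 6.32e-06).

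The fatty acid genes split by the kind of step. All of the desaturases fell. Scd1, a desaturase that puts the first double bond into saturated chains, had 354, 339 and 319 CPM in mESC-2i and 66.5, 62.2 and 75.7 in mESC-ser (-2.36 ± 0.11, adjusted p = 7.59e-08). Its neighbour and paralogue Scd2 had 1178, 1109 and 1153 CPM against 366, 357 and 451 (-1.61 ± 0.12, adjusted p = 1.41e-06). The polyunsaturated fatty acid desaturases Fads1 and Fads2 had -2.36 ± 0.11 and -1.95 ± 0.12, and Acss2, which makes acetyl-CoA from acetate, had -1.32 ± 0.16. The genes that build saturated chains did not share this direction. Acaca had 42.6, 39.5 and 51.7 CPM in mESC-2i and 101, 102 and 109 in mESC-ser (1.16 ± 0.12, adjusted p = 1.44e-05), with no overlap. Fasn had 495, 479 and 610.2 CPM against 772, 759 and 982 (0.61 ± 0.14, adjusted p = 0.00285). The elongase Elovl6 had 0.49 ± 0.11, just short of the fold threshold and called with RLE scaling or DESeq2 (0.52 in both), and Acly, the citrate lyase that supplies most cytosolic acetyl-CoA, had -0.14 ± 0.10. Both genes are long. The exons of Acaca and Fasn sum to 17.1 and 10.9 kb, against a median of 4.48 kb over 12264 protein-coding genes, and with length and GC offsets their fold changes were 0.49 and 0.23 and neither was called. The 5 falls were called in both fits, and the mevalonate and sterol genes called lower went from 15 to 18. Without mESC-ser replicate 3, Fasn was at 0.49 and was not called.

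**Figure D2:**
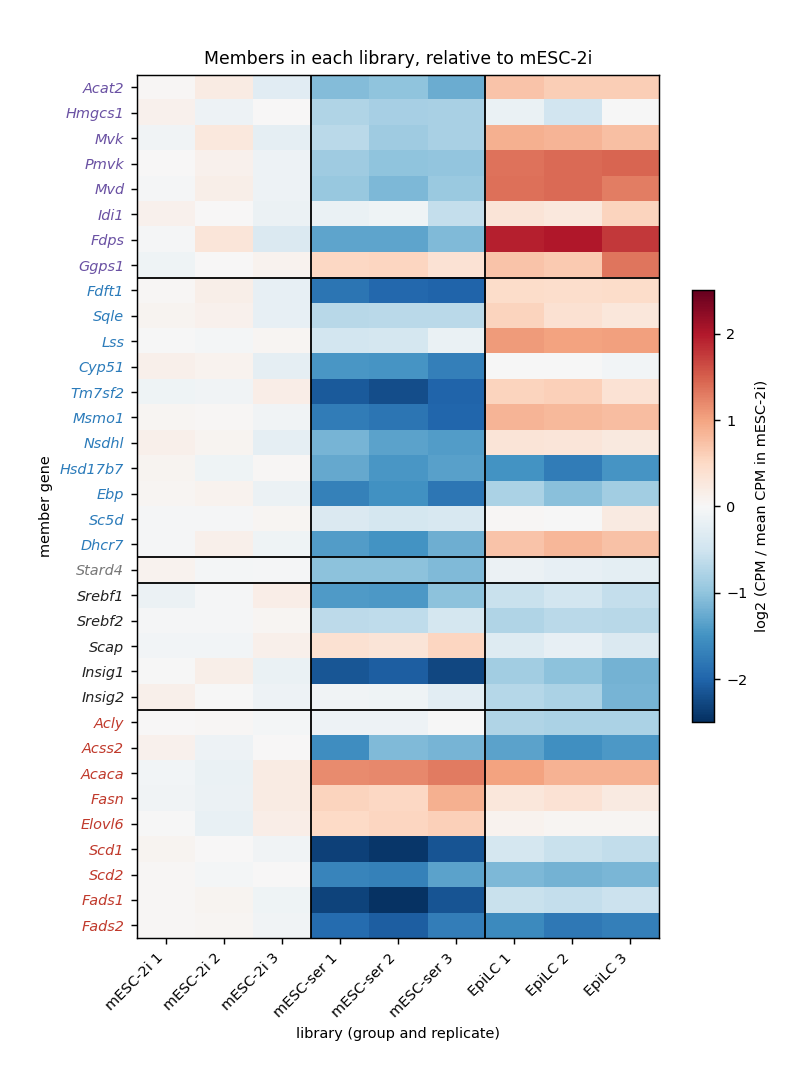
Level of each of the 34 genes (rows) in each of the 9 libraries (columns), as log2 CPM relative to the mESC-2i mean of the gene, as colours. Gene names are purple for mevalonate steps, blue for sterol steps, grey for Stard4, black for regulators and red for fatty acid steps. The serum columns are low over the purple and blue rows, and in the red rows Acaca, Fasn and Elovl6 are high in the serum columns while Scd1, Scd2, Fads1 and Fads2 are low.

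The regulators were mostly lower in mESC-ser, with 3 of 5 called lower and none higher. Insig1 had 164, 183 and 146 CPM in mESC-2i and 37.4, 39.2 and 33.9 in mESC-ser (-2.22 ± 0.12, adjusted p = 1.56e-07), the largest fall among the 34 genes outside the desaturases. Srebf1 had 135, 145 and 166 CPM against 55.8, 55.2 and 72.8 (-1.33 ± 0.13, adjusted p = 1.11e-05), and Srebf2 had 315, 312 and 331 against 202, 205 and 237 (-0.63 ± 0.10, adjusted p = 3.14e-04). Insig2, which is not known as a direct SREBP target, had 16.3 ± 1.46 and 14.6 ± 0.958 CPM, and Scap had 43.1 ± 3.36 and 57.5 ± 4.34. Neither was called (-0.21 ± 0.13 and 0.36 ± 0.11).

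EpiLC were next compared with mESC-2i, the state from which they were made. Of the 8 mevalonate genes 6 rose and none fell (median 0.86). Of the 11 sterol genes 3 rose and 2 fell (median 0.39), and of the 9 fatty acid genes 1 rose and 6 fell (median -0.58). Over 15378 genes tested, 32.0% were called higher and 37.8% lower, with a median of -0.11, and all members together had 10 called higher and 12 lower, at a median of 0.06. CPM did not overlap between the groups for 30 of the 34 genes, against 81.8% of tested genes. This comparison and that of EpiLC with mESC-ser each share libraries with the others, so their values are set side by side and are not independent.

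Fdps changed most among the mevalonate genes, with 523, 543 and 459.8 CPM in EpiLC against 133, 168 and 105 in mESC-2i (1.89 ± 0.16, adjusted p = 1.35e-06). Pmvk had 136, 142 and 147 CPM against 53.8, 57.5 and 48.6 (1.39 ± 0.10), and Mvd had 138, 141 and 129 against 51.6, 58.6 and 48.4 (1.34 ± 0.10). For these genes every EpiLC library was above every 2i library by over 2-fold. Ggps1 rose by 0.92 ± 0.18, Mvk by 0.81 ± 0.13 and Acat2 by 0.63 ± 0.12. Mvk was at 0.47, and not called, with length and GC offsets. Hmgcs1 stood apart from its neighbours in the route, with 301, 243 and 339 CPM in EpiLC, overlapping the 2i libraries (-0.23 ± 0.13, adjusted p = 0.126).

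The sterol steps moved both ways. Lss (1.01 ± 0.08), Msmo1 (0.80 ± 0.09) and Dhcr7 (0.73 ± 0.09) rose. Fdft1, Sqle, Tm7sf2, Nsdhl, Cyp51 and Sc5d lay between -0.05 and 0.49 and were not called, but Tm7sf2 (0.56) and Fdft1 (0.50) were with RLE scaling and with DESeq2. Hsd17b7 had 37.5, 33.1 and 36.4 CPM in mESC-2i and 12.6, 10.6 and 12.8 in EpiLC (-1.59 ± 0.12, adjusted p = 8.96e-07). Ebp had 53.9, 54.8 and 47 CPM against 30.1, 25 and 28.5 (-0.92 ± 0.11, adjusted p = 2.28e-05). Both fell in each of the EpiLC and serum states relative to mESC-2i, and both falls kept their call with length and GC offsets, where the sterol steps had 6 genes called higher and 2 lower.

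Most of the fatty acid steps fell in EpiLC. Acly had 601, 608 and 570.4 CPM in mESC-2i and 350.0, 343 and 342 in EpiLC (-0.80 ± 0.09, adjusted p = 1.03e-05). Scd2 had 523, 505 and 519 CPM in EpiLC (-1.17 ± 0.09, adjusted p = 9.81e-07), and Fads2 had 93.8, 95.5 and 85.9 in mESC-2i against 30.6, 26.6 and 28 in EpiLC (-1.71 ± 0.10, adjusted p = 1.02e-07). Acss2 fell by 1.45 ± 0.15, whereas Fads1 (-0.58 ± 0.09) and Scd1 (-0.55 ± 0.09) were just past the fold threshold. Acaca rose (0.90 ± 0.12, adjusted p = 3.49e-05), and Fasn (0.27 ± 0.11) and Elovl6 (0.04 ± 0.10) were not called. With length and GC offsets Acly (-0.47), Fads1 (-0.33) and Scd1 (-0.24) lost the call, Fasn (0.54) gained one, and Acaca was at 1.68. Scd1 was also not called without mESC-2i replicate 1 (-0.48), or with RLE scaling or DESeq2 (-0.49 in both).

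All regulators were lower or not called in EpiLC, with 4 of 5 called. Insig1 had 89.4, 80.7 and 72 CPM in EpiLC against 164, 183 and 146 (-1.04 ± 0.11, adjusted p = 9.75e-06). Insig2 had 9.93, 9.44 and 7.29 CPM against 17.8, 16.1 and 14.9 (-0.88 ± 0.16, adjusted p = 3.95e-04). Srebf2 had 190.3, 199 and 197 CPM against 315, 312 and 331 (-0.73 ± 0.09, adjusted p = 1.82e-05), in the comparison in which 6 mevalonate genes rose. Srebf1 had -0.56 ± 0.10, which was not called without mESC-2i replicate 3 (-0.47) or with RLE scaling or DESeq2 (-0.49 in both), and Scap had -0.32 ± 0.10.

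Between EpiLC and mESC-ser the sterol route differed in nearly every gene. All 8 mevalonate genes and 10 of 11 sterol genes were called higher in EpiLC and none lower, with a median of 1.67 against -0.07 over all tested genes. Of the 9 fatty acid genes 2 were called higher and 1 lower, with a median of -0.09. Over 15345 genes tested, 35.5% were called higher and 37.8% lower. The groups did not overlap for 32 of the 34 genes, against 85.7% of tested genes. The largest difference was in Fdps, with 523, 543 and 459.8 CPM in EpiLC and 54.5, 54.2 and 62.8 in mESC-ser (3.24 ± 0.10, adjusted p = 5.42e-14). Msmo1 (2.75 ± 0.09), Tm7sf2 (2.69 ± 0.12), Fdft1 (2.47 ± 0.08), Pmvk (2.46 ± 0.09) and Mvd (2.44 ± 0.09) all differed by over 4-fold. The smallest called differences were Ggps1 (0.55 ± 0.15) and Sc5d (0.57 ± 0.10). Ggps1 was at 0.49 without mESC-ser replicate 3 and 0.31 without EpiLC replicate 3, and Sc5d at 0.50 without EpiLC replicate 3, none of them called. Both also fell short, at 0.47 to 0.50, without a filter, with a count minimum and in one fit of all libraries. Hsd17b7 was the exception among the 19, at 13.8 ± 0.826 CPM in mESC-ser and 12 ± 1.21 in EpiLC (-0.13 ± 0.12, adjusted p = 0.357).

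In the fatty acid steps Scd1 had 249, 229 and 220.4 CPM in EpiLC against 66.5, 62.2 and 75.7 in mESC-ser (1.85 ± 0.09, adjusted p = 7.81e-12), and Fads1 had 129.7, 127 and 132 against 38.4, 34.5 and 42.9 (1.83 ± 0.09, adjusted p = 8.81e-12). Their paralogues Scd2 (0.48 ± 0.09) and Fads2 (0.28 ± 0.11) were not called, but Scd2 lay next to the threshold and was called with RLE scaling (0.51), DESeq2 (0.51) and length and GC offsets (0.84), without mESC-ser replicate 3 (0.60) and without EpiLC replicate 2 (0.51). Acly fell (-0.62 ± 0.08). Acaca (-0.22 ± 0.08), Fasn (-0.29 ± 0.10), Elovl6 (-0.40 ± 0.07) and Acss2 (-0.09 ± 0.17) were not called, and the sign of all of them turned with length and GC offsets, to 1.22, 0.37, 0.28 and 0.85. In that fit 5 fatty acid genes were called higher and none lower, with a median of 0.84. The mevalonate and sterol genes had 18 called higher in both fits.

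**Figure D3:**
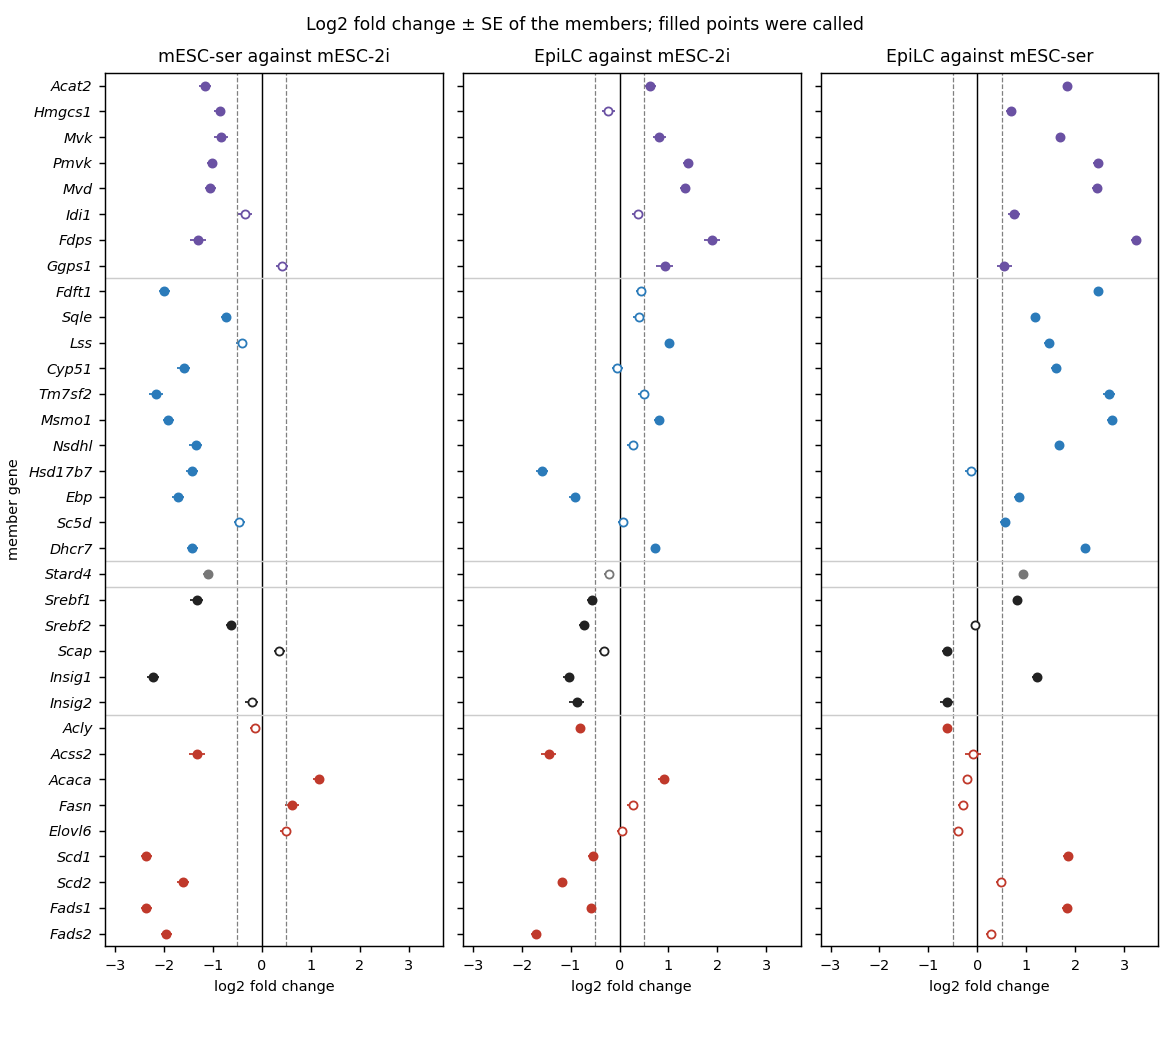
log2 fold change of each of the 34 genes (rows) in the 3 comparisons (panels), with SE as bars. Filled points were called, dashed lines mark a log2 fold change of 0.5 in either direction, and point colours mark roles as purple mevalonate, blue sterol, grey Stard4, black regulator and red fatty acid. The purple and blue points lie left of 0 in mESC-ser against mESC-2i except Ggps1 (0.41), and right of 0 in EpiLC against mESC-ser except Hsd17b7 (-0.13).

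**Figure D4:**
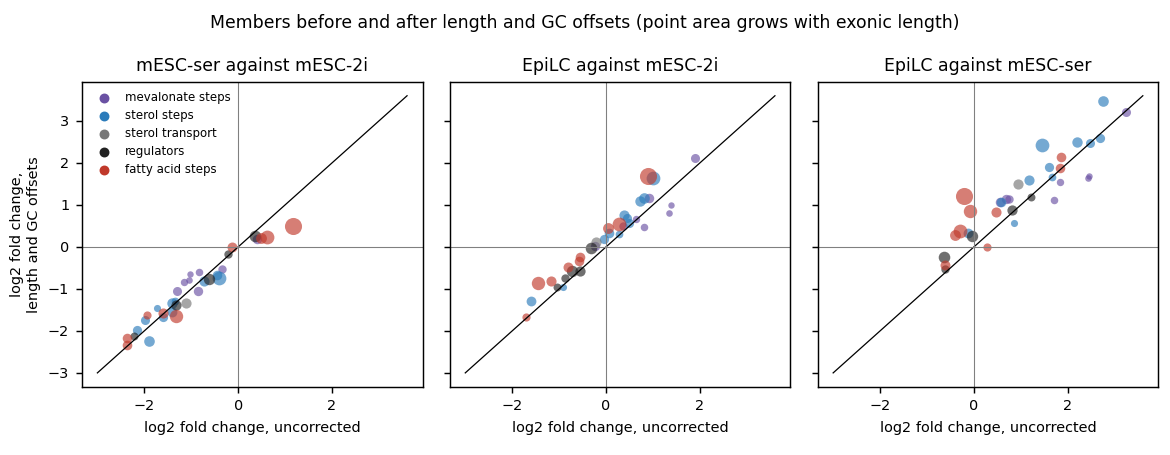
log2 fold change without (x axis) and with (y axis) offsets for exonic length and GC content, in the 3 comparisons (panels). Point area is exonic length and colours mark roles. Acaca, the longest of the genes at 17.1 kb, moves from 1.16 to 0.49 in mESC-ser against mESC-2i and from -0.22 to 1.22 in EpiLC against mESC-ser.

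Among the regulators in the same comparison Insig1 rose (1.22 ± 0.10, adjusted p = 4.23e-09) and Srebf1 rose (0.82 ± 0.10, adjusted p = 1.37e-06). Srebf2 was not called, at 195 ± 4.39 CPM in EpiLC and 215 ± 19.3 in mESC-ser (-0.05 ± 0.08, adjusted p = 0.565). Scap (-0.63 ± 0.09) and Insig2 (-0.62 ± 0.14) fell. Scap was not called with length and GC offsets (-0.23), and Insig2 was at -0.50 and not called without EpiLC replicate 3.

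Taking the group means in order, 14 of the 19 mevalonate and sterol genes were lowest in mESC-ser and highest in EpiLC. Hmgcs1, Cyp51 and Ebp were lowest in mESC-ser and highest in mESC-2i, Ggps1 was lowest in mESC-2i, and Hsd17b7 was lowest in EpiLC. Neighbours in that order that overlapped were mESC-2i and EpiLC for Hmgcs1, Cyp51 and Sc5d, and mESC-2i and mESC-ser for Idi1. With length and GC offsets Hsd17b7 was at 0.32 in EpiLC against mESC-ser, so its lowest state turned. In EpiLC against mESC-2i, Hmgcs1 (0.02) and Cyp51 (0.19) were then no longer below mESC-2i, while Ebp (-0.96) was. Of these values only that of Ebp was called. In CPM no fatty acid gene was highest in EpiLC, but with length and GC offsets Acaca, Fasn and Elovl6 were above both other states there. Mean CPM of Scd1, Scd2, Fads1 and Fads2 was lowest in mESC-ser and highest in mESC-2i, that of Acaca, Fasn and Elovl6 was lowest in mESC-2i and highest in mESC-ser, and that of Acly and Acss2 was lowest in EpiLC. Among these, mESC-ser and EpiLC overlapped for Fads2 and Acss2, so their lowest state was not resolved. Likewise mESC-2i and EpiLC overlapped for Elovl6, and mESC-2i and mESC-ser for Acly. With offsets the values of EpiLC against mESC-ser were 1.22 for Acaca, 0.37 for Fasn, 0.28 for Elovl6 and 0.85 for Acss2, so their order in these states turned. Elovl6 was the only gene of the 34 without a call in any of the 3 comparisons, though in mESC-ser against mESC-2i it was called under several alternatives, at 0.52 to 0.58.

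The pattern across the calls was also described by pairs of related genes, with levels divided by exonic length (CPM per kb). The ratio of Insig1 to Insig2 was 11.4 ± 1.26 with 2i, 2.83 ± 0.091 with serum and 10.3 ± 0.758 in EpiLC. The serum libraries were apart from the rest, and mESC-2i and EpiLC overlapped, at 10.3 to 12.8 and 9.6 to 11.1. Scd2 over Scd1 was 3.05 ± 0.163, 5.13 ± 0.203 and 1.99 ± 0.116, with no overlap between groups. Scd2 had the highest level per kb of all the genes in mESC-2i (209.9), but in mESC-ser it was at 71.6, below Acly (106) and Fasn (76.5), and in EpiLC Fdps was highest (121). Fads2 over Fads1 was 0.702 ± 0.00425, 0.933 ± 0.0152 and 0.32 ± 0.0215, again without overlap. Scd1 and Scd2, and Fads1 and Fads2, lie close together on chromosome 19 (GRCm38, Scd2 at 44293674 to 44306864 and Scd1 at 44394455 to 44407879). Reads shared between such paralogues could have been assigned to either or dropped, which was not stated. Srebf2 over Srebf1 was 1.7 ± 0.133, 2.77 ± 0.192 and 1.5 ± 0.0714, and mESC-2i (1.57 to 1.83) overlapped EpiLC (1.44 to 1.58). Acly over Acss2, the citrate and acetate routes to acetyl-CoA, was 70.3 ± 7.09, 161 ± 24.8 and 110.2 ± 6.23. These ratios are descriptions and were not tested.

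**Figure D5:**
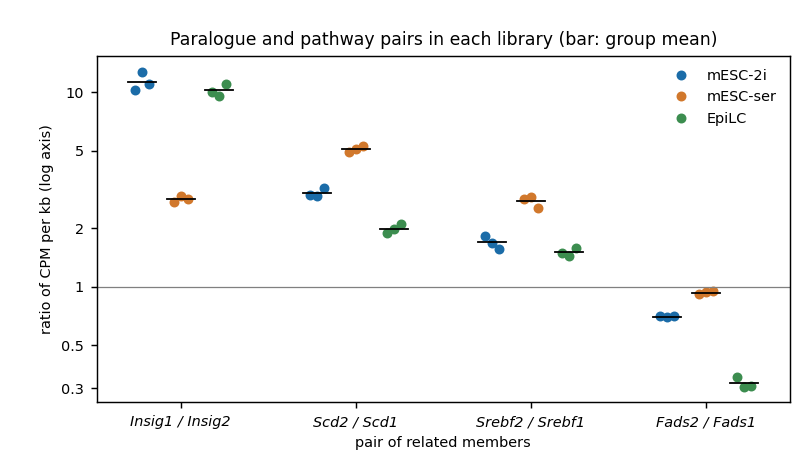
Ratio of the levels in CPM per kb (y axis, log scale) for 4 pairs of related genes (x axis). Points are libraries of mESC-2i, mESC-ser and EpiLC, by colour, and bars are group means. Insig1 over Insig2 has a mean of 11.4 in mESC-2i and 2.83 in mESC-ser, and Scd2 over Scd1 is highest in mESC-ser (5.13) and lowest in EpiLC (1.99).

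Some libraries lay at one edge of their group for many of the genes. In mESC-2i, replicate 3 was the lowest of its group for 13 of the 19 mevalonate and sterol genes (68.4%), against 39.6% of 16187 genes past the filter. In Acat2 it had 98.9 CPM against 122 and 138, and in Fdps 105 against 133 and 168. In mESC-ser, replicate 3 was the highest of its group for 8 of the 9 fatty acid genes, against 41.7% of genes, with Fasn at 982 against 772 and 759. In EpiLC, replicate 1 was the highest for 7 of the 9, against 31.7%.

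Other genes of these routes were described through 5 further lists, whose counts are set against the calls over all genes given above. Of 14 other mevalonate, isoprenoid and sterol genes 13 were tested, with 4 higher (30.8%) and 3 lower (23.1%) in mESC-ser than in mESC-2i, near the 25.9% and 30.3% of all genes. In EpiLC 5 were higher (38.5%, against 32.0% of all genes) and 2 lower (15.4%, against 37.8%) than in mESC-2i. Relative to mESC-ser, 4 were higher (30.8%, against 35.5%) and 2 lower (15.4%, against 37.8%) in EpiLC. Soat1, which esterifies cholesterol for storage, was at 25.3 ± 1.93 CPM with 2i, 53 ± 3.44 with serum and 62 ± 3.32 in EpiLC, with a rise of 1.00 ± 0.11 in mESC-ser over mESC-2i. In the prenylation branch the prenyl transferase subunit Pggt1b rose in mESC-ser (1.09 ± 0.12) and fell in EpiLC against mESC-2i (-1.13 ± 0.18).

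Of 9 SREBP processing and sterol sensing genes 1 was called lower in mESC-ser (11.1%, against 30.3% of all genes) and none higher. It was the sterol receptor gene Nr1h2 (-0.58 ± 0.20). In EpiLC 4 of 8 tested fell (50.0%) and none rose against mESC-2i, and 4 of 9 fell (44.4%) and 1 rose (11.1%) against mESC-ser. Of all genes 37.8% fell in each of these comparisons, and 32.0% and 35.5% rose. Genes of the list that fell against mESC-2i included Erlin1 (-1.69 ± 0.12) and Erlin2 (-1.61 ± 0.10), which act in sterol-dependent turnover at the endoplasmic reticulum. Another was Mbtps2 (-1.32 ± 0.17), a protease that releases active SREBP.

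Sterol uptake and export genes were mostly lower in serum. Of 12 tested, 9 fell (75%, against 30.3% of all genes) and 1 rose (8.33%, against 25.9%) in mESC-ser relative to mESC-2i. In EpiLC 2 rose (16.7%, against 32.0%) and 8 fell (66.7%, against 37.8%) relative to mESC-2i, and 7 rose (58.3%, against 35.5%) and 2 fell (16.7%, against 37.8%) relative to mESC-ser. Npc2, which hands cholesterol out of lysosomes, was at 454 ± 65 CPM with 2i, 53.2 ± 6.97 with serum and 163 ± 5.94 in EpiLC. The lipoprotein receptors Scarb1 and Vldlr fell by 2.01 and 2.25 on the log2 scale in mESC-ser. The cholesterol exporter Abca1 was the 1 gene of this list that rose in mESC-ser against mESC-2i. It was at 24 ± 4.08 CPM with 2i, 44.9 ± 2.68 with serum and 1.1 ± 0.432 in EpiLC. That was a rise of 0.84 ± 0.14 in mESC-ser and a fall of 4.46 ± 0.26 in EpiLC against mESC-2i.

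The other fatty acid genes were mixed. Of 28 tested, 4 rose (14.3%, against 25.9% of all genes) and 14 fell (50.0%, against 30.3%) in mESC-ser relative to mESC-2i. In EpiLC 9 rose (32.1%) and 9 fell relative to mESC-2i, while 10 rose (37%) and 5 fell of 27 relative to mESC-ser, near the 32.0% and 35.5% of all genes that rose. Those that fell were 32.1% and 18.5%, against 37.8% of all genes in each comparison. Me1, which supplies NADPH, fell in mESC-ser (-2.02 ± 0.13) and EpiLC (-2.09 ± 0.11) from 107 ± 9.97 CPM in mESC-2i. The reductase Tecr of chain elongation was at 322 ± 24.5 CPM in EpiLC and 91.6 ± 4.48 in mESC-ser (1.90 ± 0.09). Dgat2, of triglyceride synthesis, rose in mESC-ser (1.79 ± 0.20). Of 13 fatty acid oxidation genes tested, 8 fell (61.5%, against 30.3%) and none rose in mESC-ser and 6 fell (46.2%, against 37.8%) and none rose in EpiLC, both relative to mESC-2i. Relative to mESC-ser, 3 rose (23.1%, against 35.5%) and 5 fell (38.5%, against 37.8%) in EpiLC. Cpt1a, which controls entry of fatty acids into mitochondria, was at 158 ± 2.34, 37.2 ± 3.52 and 8.65 ± 1.04 CPM in mESC-2i, mESC-ser and EpiLC, with each step down called (-2.14 ± 0.11 and -2.02 ± 0.12).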

How the data were processed

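The deposited values were raw counts of reads for each Ensembl gene, made by the authors from single-end reads of 50 bases of poly-A RNA. Per the labels and the study's methods, reads were trimmed (Trim Galore 0.6.6), aligned to mm10 (HISAT2 2.2.1) and counted with featureCounts (Subread 2.0.1). The annotation release, strand setting and handling of multiply aligned reads were not given in the sources used here. Symbols and lengths came from GENCODE M21, which matched 36429 identifiers (95.1%).

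Serum columns were matched to samples by the initials of serum and LIF. Each pair of groups (6 libraries) was fitted in edgeR 4.0.16 (R 4.3.3, limma 3.58.1) with filterByExpr, TMM scaling and the quasi-likelihood F-test, with SE from F. The steps were tested on simulated data. Levels are CPM scaled by TMM over 9 libraries. The thresholds of 0.5 on the fold and 0.05 on the adjusted p both appear in the study, which paired the fold with a nominal p for edgeR. Offsets were natural splines with 5 degrees of freedom in log length and in GC content per library. Outside the 34 genes, a list's up to 3 called genes with the largest change per comparison, a mean of 100 counts in the higher group and no overlap could be named, and some that met this are not reported here. Genes, lists and tests were chosen with earlier results of these data known. Alternatives were scaling by RLE, upper quartile or total counts, other filters and thresholds, DESeq2 1.42.0, a fit of all libraries, a replicate block and leaving out each library. Counts cover counting error only, without molecular identifiers. Between mESC-ser and mESC-2i, deviations of same-numbered libraries from their group means correlated at 0.129 to 0.345. Libraries with different numbers correlated at -0.278 to 0.146, so the ranges overlapped and a pairing by number is uncertain. Such a pairing was used only in the fits with a replicate block, and the main fits did not pair libraries. In the other comparisons the same-numbered correlations did not reach 0.1 in every pair. Chi-square per degree of freedom between replicates was 1.66 to 30.5, so none agreed within sampling noise. Histone modification data were not used here.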

Additional observations from a re-analysis of the deposited data

How the results depend on the processing

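Of 1836 fold changes of single genes recomputed under alternatives, 1671 kept their direction and side of the threshold, 70 lost the call, 62 gained it and 33 changed sign. The cause was not tested for any of these. The replicate block alone left every count of calls as reported, such as 15 mevalonate and sterol genes lower in mESC-ser than in mESC-2i, and moved the medians by at most 0.01.

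Total-count scaling moved the median of all genes to -0.45 in EpiLC relative to mESC-2i and -0.41 relative to mESC-ser, and the share of calls that were higher to 33.7% from 45.9% and to 37.4% from 48.4%. Relative to mESC-2i it left 5 mevalonate and sterol genes (6 of all 34) higher in EpiLC, with medians of 0.15 for mevalonate and sterol and -0.91 for fatty acid genes, and the sign turned for Nsdhl (-0.07), Sc5d (-0.27), Fasn (-0.07) and Elovl6 (-0.29). Relative to mESC-ser the medians were 1.33 and -0.43, with 4 fatty acid genes and 6 of all genes lower, and Fads2 at -0.06. RLE scaling and DESeq2 both gave -0.51 for the fatty acid median in EpiLC against mESC-2i and 0.02 for Cyp51.

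Length and GC offsets, without and with the replicate block, gave 0 genes called higher in serum than with 2i, a fatty acid median of -1.58 and -1.59, a mevalonate and sterol median of -1.01 with the block, and Acly at 0.0017 and 0.0029. In EpiLC against mESC-2i both gave 2 fatty acid genes higher and 3 lower, a mevalonate and sterol median of 0.66 and a fatty acid median of -0.33 and -0.32, with Hmgcs1 at 0.02 and 0.01, Cyp51 at 0.19 and 0.20 and Stard4 at 0.11. In EpiLC against mESC-ser both gave 5 fatty acid genes higher and 0 lower, 1 gene of all lower and a fatty acid median of 0.84. There Hsd17b7 was at 0.32 and 0.33, Srebf2 at 0.26, Acss2 at 0.85, Acaca at 1.22 and 1.21, Fasn at 0.37, Elovl6 at 0.28 and Fads2 at -0.01 and -0.0027.

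With the adjusted p alone, serum against 2i had 1 mevalonate and sterol gene and 5 of all genes higher. EpiLC against mESC-2i had 14 mevalonate and sterol, 2 fatty acid and 16 of all genes higher, and EpiLC against mESC-ser had 4 fatty acid genes higher and 4 lower, with 6 of all lower. With a log2 fold change over 1, 1 gene, a fatty acid one, was higher in serum than with 2i. In EpiLC relative to mESC-2i 4 mevalonate and sterol genes and 4 of all were higher, 0 fatty acid genes higher, and 1 mevalonate and sterol gene, 3 fatty acid genes and 5 of all lower, while 0 fatty acid genes and 0 of all were lower in EpiLC against mESC-ser.

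The fatty acid median in EpiLC against mESC-ser was -0.18 with no filter, and -0.16 with at least 10 counts in every library and with all 9 libraries in one fit, and Elovl6 was at -0.02 with the count minimum in EpiLC against mESC-2i. Leaving out each library gave 1 to 3 fatty acid genes and 1 to 3 of all genes higher in serum than with 2i, the low value being without mESC-ser replicate 3, with a fatty acid median of -1.39 to -1.16, and -0.22 to -0.03 in EpiLC against mESC-ser. Cyp51 in EpiLC against mESC-2i ran from -0.15 to 0.05, above 0 without mESC-2i replicate 1 or 2, and Srebf2 in EpiLC against mESC-ser from -0.10 to 0.03, above 0 without mESC-ser replicate 3.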
